A study of Homo sapiens with 6 samples.

Results

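The S100 proteins are small calcium-binding proteins that work mostly as dimers. On binding calcium they expose a surface that docks to partners such as annexins, myosin and p53, and several are also released and bind cell-surface receptors. In lung adenocarcinoma S100A4, S100A6, S100A11 and S100P are best known as genes linked to motility and invasion. Here 10 S100 genes were described: S100A2, S100A3, S100A4, S100A6, S100A11, S100A13, S100A14, S100A16, S100P and S100B. They were chosen by symbol, each matched 1 row of the count table, and they are 10 of 62703 genes in all.

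The cells were A549, an established human lung adenocarcinoma line, and RNA was sequenced from 3 libraries of cells in S-AlgLung hydrogel and 3 in AlgLung hydrogel. Both groups are the same line, kept beforehand in the same serum-containing medium. The labels do not spell out the S or give the time in the gel; the series title concerns sulfation of the extracellular matrix. Nothing states that the replicates came from different cultures, and the p-values therefore cover library-to-library spread that could be technical.

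Total counts were 24132875 to 26495444 in the S-AlgLung libraries and 22978408 to 23682120 in the AlgLung libraries. S-AlgLung replicate 3 stood apart on the second principal component, at -49.22 against 20.25 and 33.36 for the other S-AlgLung libraries. MALAT1 and NEAT1, nuclear noncoding RNAs, took 0.0264% of its counts and 0.00398% to 0.00736% of those of the other 5 libraries. Of 5 epithelial markers all had enough counts to test, with a summed level of 4455 to 11996 CPM (TMM-scaled counts relative to library size) in S-AlgLung and 10034 to 13216 CPM in AlgLung, although EPCAM was at 5.40 CPM or less in every library. Fibroblast markers summed to at most 4.62 CPM and endothelial markers to at most 3.73 CPM in any library. PTPRC, the pan-leukocyte marker, reached at most 0.211 CPM, while the 4 immune markers together, mostly CD14, summed to 44.3 to 71.4 CPM in S-AlgLung and 30.9 to 38.1 CPM in AlgLung. All 6 mitosis markers fell in S-AlgLung, with a summed level of 23.9 to 42.8 CPM there and 112.3 to 127.1 CPM in AlgLung; the part of cell division in the S100 values was not tested.

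S100 expression did not differ detectably between the hydrogels. Of the 8 members with enough counts to test, 0 were called in either direction by edgeR's quasi-likelihood test (threshold 0.05 after adjustment), against 5.14% of all 18544 genes tested, 3.15% higher and 1.99% lower. DESeq2 and limma-voom also called 0, against 5.35% and 4.56% of all genes, and 0 members had an unadjusted p under 0.05 in edgeR. With 8 genes, 0 calls is near these shares and does not set the members apart. The groups overlapped in all 8 tested members, while in 18.4% of all tested genes they did not. The median log2 fold change (S-AlgLung minus AlgLung) was 0.06 over the 8 members and 0.03 over all tested genes, with 4 members above 0 and 4 below. S100A14 and S100B did not pass the filter on low counts. In bulk RNA, fewer cells with a transcript and less of it per cell cannot be told apart.

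Promoter windows are shown for 4 members because they carry the contrasts described below: S100A6 and S100A4 are the most abundant members, the ranges of their ratio did not overlap between hydrogels, S100P had the highest fold change, and S100A3 had the lowest. The windows run from 250 bases before to 50 bases after the RefSeq start (GRCh38.p14), and 9 of 10 members had 1 or more in the table. S100A6 is at chr1:153535942-153536241 on the minus strand, S100A4 at chr1:153545757-153546056 on the minus strand, S100P at chr4:6693628-6693927 on the plus strand and S100A3 at chr1:153549209-153549508 on the minus strand. Capitals mark matches on either strand to the core promoter motif TATAAA, to the Sp1-binding motif GGGCGG, and to the AP-1 motif TGACTCA.
S100A6: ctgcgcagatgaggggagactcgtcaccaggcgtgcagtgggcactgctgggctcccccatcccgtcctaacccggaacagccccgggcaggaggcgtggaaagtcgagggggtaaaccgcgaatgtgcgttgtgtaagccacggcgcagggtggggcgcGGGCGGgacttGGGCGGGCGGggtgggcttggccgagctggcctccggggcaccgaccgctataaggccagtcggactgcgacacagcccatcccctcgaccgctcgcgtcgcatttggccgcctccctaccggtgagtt
S100A4: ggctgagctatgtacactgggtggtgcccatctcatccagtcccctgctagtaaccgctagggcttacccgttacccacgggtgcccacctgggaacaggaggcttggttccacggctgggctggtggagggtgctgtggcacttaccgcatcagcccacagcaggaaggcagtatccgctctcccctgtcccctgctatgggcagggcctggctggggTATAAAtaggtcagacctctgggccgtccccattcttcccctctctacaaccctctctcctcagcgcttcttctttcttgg
S100P: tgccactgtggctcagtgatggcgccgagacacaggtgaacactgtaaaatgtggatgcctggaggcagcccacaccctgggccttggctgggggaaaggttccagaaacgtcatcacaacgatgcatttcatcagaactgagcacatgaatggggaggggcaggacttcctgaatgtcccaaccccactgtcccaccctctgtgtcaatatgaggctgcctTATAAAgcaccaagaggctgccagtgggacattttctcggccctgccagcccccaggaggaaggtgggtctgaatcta
S100A3: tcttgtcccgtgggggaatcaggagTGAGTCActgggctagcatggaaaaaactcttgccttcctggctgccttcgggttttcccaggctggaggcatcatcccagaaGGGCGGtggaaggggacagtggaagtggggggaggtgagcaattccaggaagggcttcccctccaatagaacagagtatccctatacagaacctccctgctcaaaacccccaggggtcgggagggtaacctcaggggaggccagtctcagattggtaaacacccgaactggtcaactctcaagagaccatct
The S100A6 window held 3 matches to the Sp1 motif, of which 1 pair overlaps, and 31 CpG dinucleotides. The windows of S100A4 and S100P each held 1 match to the core promoter motif, with 8 and 5 CpGs. The S100A3 window held 1 Sp1 motif, 1 AP-1 motif and 5 CpGs. Over all 35116 promoter windows of this length the median was 14 CpGs, and 11.5% held the core promoter motif, 45.0% the Sp1 motif and 4.95% the AP-1 motif. Such matches describe the letters of a window and not a site in use.

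The members ranged widely in level. On the scale of CPM per kb of exon, S100A6 averaged 1581 over the 6 libraries, above 99.8% of all tested genes, followed by S100A4 at 1034 and S100A11 at 725. S100P stood at 206.5 and S100A16 at 176 CPM per kb. S100A13 was at 33.4, S100A3 at 15.9 and S100A2 at 1.23 CPM per kb. Ranges over the 6 libraries overlapped between neighbours in this order for S100A6 (1029 to 2173) and S100A4 (722 to 1277), for S100A4 and S100A11 (399 to 951), and for S100P (129.7 to 284.7) and S100A16 (103.8 to 214). Within each library, S100A6 stood above S100A4 and S100A4 above S100A11 in all 6, while the order of S100P and S100A16 changed between libraries, with S100A16 relative to S100P at 0.497 to 1.12. Together the 8 tested members took 0.333%, 0.406% and 0.279% of all counts in S-AlgLung and 0.264%, 0.388% and 0.385% in AlgLung.

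**Figure D1:**
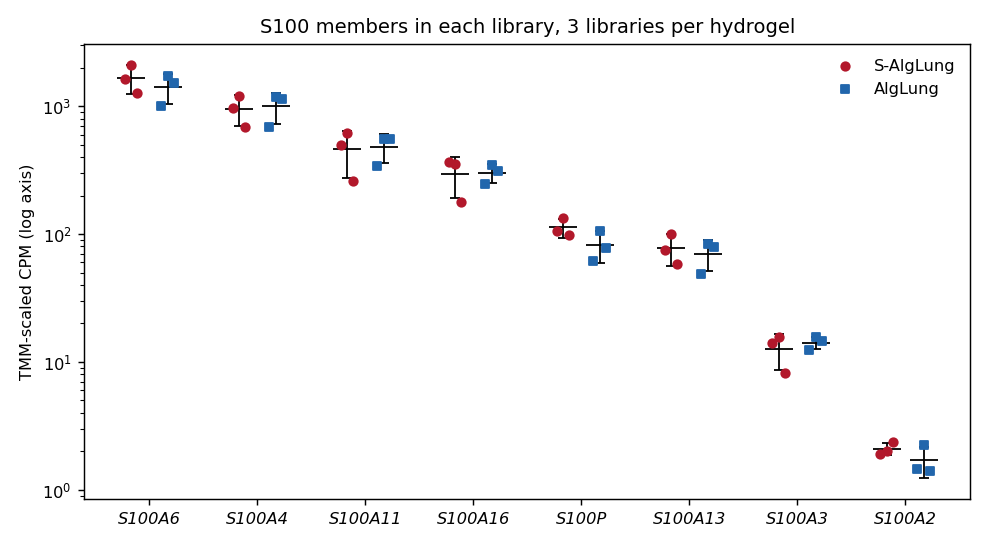
TMM-scaled CPM (log axis) of the 8 tested S100 members in each library, circles for S-AlgLung and squares for AlgLung, with black bars for the mean ± SD of 3 libraries. The hydrogels overlap for every member, from S100A6 at 999 to 2110 CPM down to S100A2 at 1.41 to 2.35 CPM.

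S100A6, calcyclin, which binds the CACYBP adaptor of a ubiquitin ligase complex, lies on chromosome 1 from 153534599 to 153536244 on the minus strand (GRCh38). It had 1616, 2110 and 1261 CPM in S-AlgLung and 999, 1715 and 1513 CPM in AlgLung. AlgLung replicate 1 was the lowest library and S-AlgLung replicate 2 the highest, and the groups overlapped. The log2 fold change was 0.24 (SE 0.29, 95% interval -0.35 to 0.83, adjusted p = 0.803), so the data allow anything from 0.783-fold to 1.78-fold.

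S100A4, also called metastasin, binds non-muscle myosin IIA and is named for its link to metastasis (chromosome 1, 153543613 to 153550136, minus strand). It had 969, 1208 and 692 CPM in S-AlgLung and 683, 1180 and 1137 CPM in AlgLung. Again AlgLung replicate 1 and S-AlgLung replicate 3 were the low libraries. The log2 fold change was -0.06 (SE 0.29, 95% interval -0.65 to 0.52, adjusted p = 0.965). The S100A3 gene lies within the S100A4 span on the same strand but the exons of the 2 genes share 0 bases.

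S100A11, or calgizzarin, is a partner of annexin A1 and lies at 152032506 to 152047907 on the minus strand of chromosome 1. It had 501, 617 and 259 CPM in S-AlgLung, against 340, 553 and 554 CPM in AlgLung. S-AlgLung replicate 3 was the lowest of all 6 libraries and S-AlgLung replicate 2 the highest. The log2 fold change was -0.07 (SE 0.29, 95% interval -0.67 to 0.53). The table has 8 S100A11 pseudogene rows, with 0 counts in all, and the handling of reads that match several places is not stated in the labels.

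Among members that act outside the cell, S100P came closest to a difference. S100P binds ezrin and IQGAP1 inside cells and the receptor RAGE outside them (chromosome 4, 6693878 to 6697170, plus strand). It had 105.2, 134.1 and 98.4 CPM in S-AlgLung and 61.1, 106.4 and 78.3 CPM in AlgLung. Only AlgLung replicate 2 reached the range of the S-AlgLung libraries. The means were 113 ± 19.0 CPM in S-AlgLung and 81.9 ± 22.9 CPM in AlgLung (SD, n = 3 each), a log2 fold change of 0.46 (SE 0.24, 95% interval -0.04 to 0.96). The edgeR adjusted p was 0.402, from an unadjusted p of 0.0718, so the difference did not pass; a fold change between 0.970 and 1.95 remains possible.

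S100A13 helps release FGF1 and interleukin-1 alpha, proteins that leave the cell without a signal peptide (chromosome 1, 153618787 to 153631360, minus strand). It had 74.8, 100.5 and 57.8 CPM in S-AlgLung and 48.6, 83.0 and 79.4 CPM in AlgLung. The log2 fold change was 0.14 (SE 0.25, 95% interval -0.37 to 0.66), with overlapping groups. Its level is uncertain, because the gene ENSG00000271853 on the same strand covers 24.2% of its exon bases and had 12709 counts against 10690 for S100A13. That gene was at 0.12 (95% interval -0.39 to 0.62). FGF1 and IL1A, the proteins' genes, were each at or below 0.0844 CPM in every library and could not be tested.

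S100B, the marker of glia and melanocytes (chromosome 21, 46598604 to 46605208, minus strand), had 1 read in all, in S-AlgLung replicate 3. A count of 3 corresponds to 0.113 to 0.131 CPM of total counts in these libraries; such floors cover counting error only.

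The remaining members ranged from abundant to nearly silent. S100A16, a widely expressed member (chromosome 1, 153606886 to 153613145, minus strand), had 364, 351 and 177 CPM in S-AlgLung, against 248, 349.6 and 309 CPM in AlgLung. S-AlgLung replicate 3 was the lowest library, and the log2 fold change was -0.03 (SE 0.27, 95% interval -0.59 to 0.54). S100A3, a cysteine-rich zinc-binding protein of the hair cuticle (chromosome 1, 153547329 to 153549258, minus strand), had 14.01, 15.6 and 8.17 CPM in S-AlgLung and 12.3, 15.6 and 14.6 CPM in AlgLung. Its log2 fold change of -0.17 (SE 0.24, 95% interval -0.66 to 0.32) was the lowest of the tested members, and again S-AlgLung replicate 3 alone lay low.

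S100A2, a p53-binding protein of basal epithelia (chromosome 1, 153561108 to 153567890, minus strand), had 1.90, 2.03 and 2.35 CPM in S-AlgLung and 1.46, 2.25 and 1.41 CPM in AlgLung. These values rest on 278 reads in all, and the log2 fold change was 0.30 (SE 0.33, 95% interval -0.37 to 0.97). Of the 8 tested members it was the only one whose highest library was S-AlgLung replicate 3. S100A14, an epithelial member (chromosome 1, 153614255 to 153616986, minus strand), had 8, 7 and 14 reads in S-AlgLung and 8, 7 and 13 in AlgLung. That is 0.363, 0.296 and 0.497 CPM in S-AlgLung and 0.307, 0.315 and 0.538 CPM in AlgLung, too few reads for the test.

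**Figure D2:**
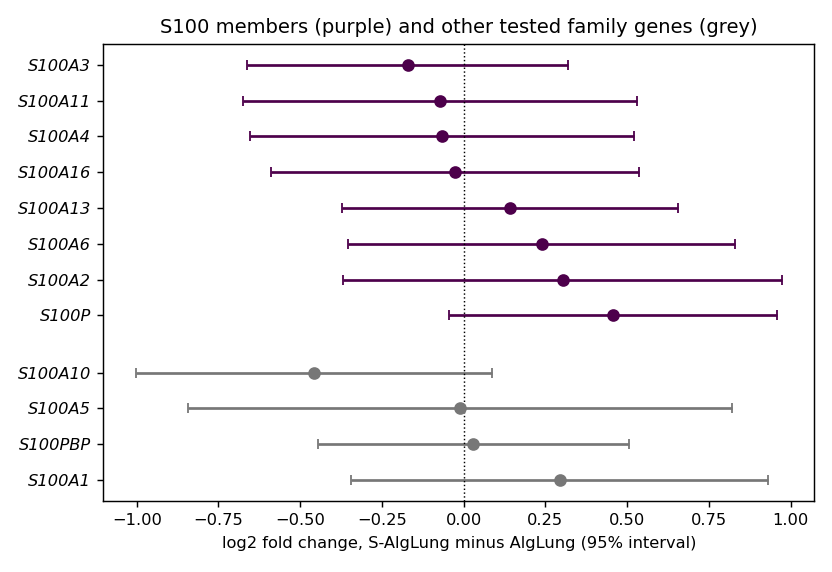
Log2 fold changes (S-AlgLung minus AlgLung) with 95% intervals for the 8 tested S100 members, purple, and 4 other tested S100 genes, grey. Every interval spans 0; S100P reaches from -0.04 to 0.96 and S100A10 from -1.003 to 0.09.

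For 5 of the 8 tested members the sign of the difference depended on single libraries. Without S-AlgLung replicate 3 the log2 fold changes of S100A3, S100A4, S100A11 and S100A16 were 0.03, 0.09, 0.18 and 0.21. Without AlgLung replicate 2 those of S100A4, S100A11 and S100A16 were 0.07, 0.04 and 0.09. Without AlgLung replicate 1 or S-AlgLung replicate 2, S100A13 was at -0.11 and -0.09, and S100A6 was at 0.00012 and 0.03. S100A2, S100A6 and S100P kept a positive sign in all 17 alternatives, with S100A2 between 0.13 and 0.54 and S100P between 0.24 and 0.69, and were not called in any. The stricter thresholds among these alternatives reuse the main fold changes, so no sign could change there. Without S-AlgLung replicate 3 the adjusted p of S100P was 0.112, at 0.52, the smallest of any member in any alternative.

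The members moved together from library to library within a hydrogel. AlgLung replicate 1 was the lowest AlgLung library for 7 of the 8 tested members and S-AlgLung replicate 3 the lowest S-AlgLung library for 7 of 8. In S-AlgLung, replicate 2 was highest for 6 of 8 members, and in AlgLung, replicate 2 was highest for 7 of 8. The median deviation of the members from their own mean over 6 libraries (log2 CPM) was 0.11, 0.40 and -0.39 in S-AlgLung and -0.44, 0.26 and 0.11 in AlgLung. Abundant short genes moved the same way except in AlgLung replicate 3. They were the 578 tested genes, members included, with a mean above 50 CPM and an exon length of at most 2216 bases. Their median deviation was 0.14, 0.24 and -0.32 in S-AlgLung and -0.22, 0.20 and -0.03 in AlgLung. Over all tested genes it was 0.008, -0.018 and 0.043 in S-AlgLung and -0.001, -0.026 and 0.014 in AlgLung. The share of all tested genes lowest or highest in each library was not counted. The TMM factors were 0.915, 0.895 and 1.10 in S-AlgLung and 1.10, 0.969 and 1.04 in AlgLung, highest in the 2 libraries where the members were low. The members' share of all counts, which uses no TMM factor, was also lowest in these 2 libraries, at 0.279% and 0.264%. With total counts only, the log2 fold change of S100P was 0.36, against 0.46 in the main fit. That of S100A4 was -0.18, against -0.06. The part of the TMM factors in the library pattern was not tested. With an offset for gene length 0 members were called, as without it, so this count cannot show what gene length did. The offset lowered the log2 fold change of every tested member, for S100P from 0.46 to 0.37 and for S100A4 from -0.06 to -0.15.

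**Figure D3:**
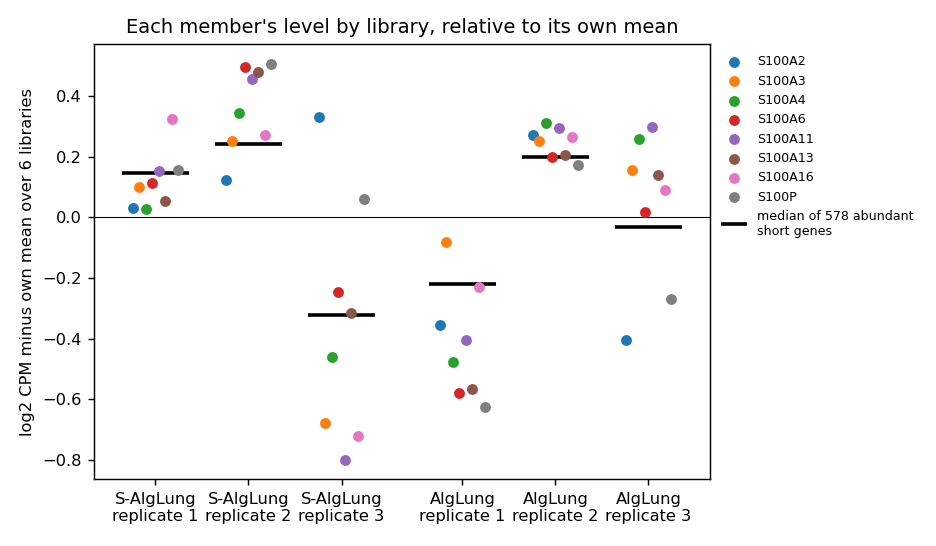
Log2 CPM of each tested S100 member minus its own mean over the 6 libraries, by library, with black bars for the median of 578 abundant short genes. Points lie mostly below 0 in S-AlgLung replicate 3 and all below 0 in AlgLung replicate 1, and all above 0 in S-AlgLung replicates 1 and 2 and in AlgLung replicate 2.

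A ratio of 2 genes within a library cancels only what the library does equally to both, and the balance among members was compared next. The members did not all move equally: in S-AlgLung replicate 3, S100A11 lay at -0.80 and S100P at 0.06 from their own means (log2 CPM). S100A4 relative to S100A6 (ratio of CPM per kb) was 0.616, 0.588 and 0.563 in S-AlgLung and 0.701, 0.706 and 0.771 in AlgLung. The groups did not overlap, and all 3 S-AlgLung libraries had less S100A4 per S100A6. The log2 ratio averaged -0.77 ± 0.06 in S-AlgLung and -0.46 ± 0.08 in AlgLung (SD, n = 3 each), a difference of -0.30. An exact two-sided permutation test gave p = 0.1, the smallest that 3 against 3 allows, so it could not pass 0.05.

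Other pairs did not overlap between the hydrogels either. S100A6 relative to S100A11 was 2.16, 2.28 and 3.26 in S-AlgLung and 1.96, 2.07 and 1.83 in AlgLung. S100A11 relative to S100P was 3.46, 3.34 and 1.91 in S-AlgLung and 4.04, 3.77 and 5.13 in AlgLung. In both pairs S-AlgLung replicate 3 lay farthest from AlgLung, yet the other S-AlgLung libraries also stayed outside the AlgLung range. S100A4 relative to S100P was 4.58, 4.48 and 3.50 in S-AlgLung and 5.56, 5.52 and 7.23 in AlgLung. Of 28 pairs of tested members, 10 (35.7%) did not overlap between hydrogels. S100A6 or S100P is in 13 of the 28 pairs and in 9 of these 10. The smallest log2 difference among the 10 was 0.10, for S100A6 relative to S100A13. For ratios of all other tested genes to any of the tested members, 12.2% did not overlap. The share was 11.1% for ratios to S100A6 and 21.7% for ratios to S100P. These shares are not a like-for-like background for the 28 pairs. The members moved together from library to library, while the median of all tested genes stayed near 0. The pairs therefore cannot be called an excess over these shares. The ratios were chosen after values had been seen, the pairs share genes, and with Benjamini-Hochberg adjustment over the 28 exact permutation tests the smallest p was 0.28.

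**Figure D4:**
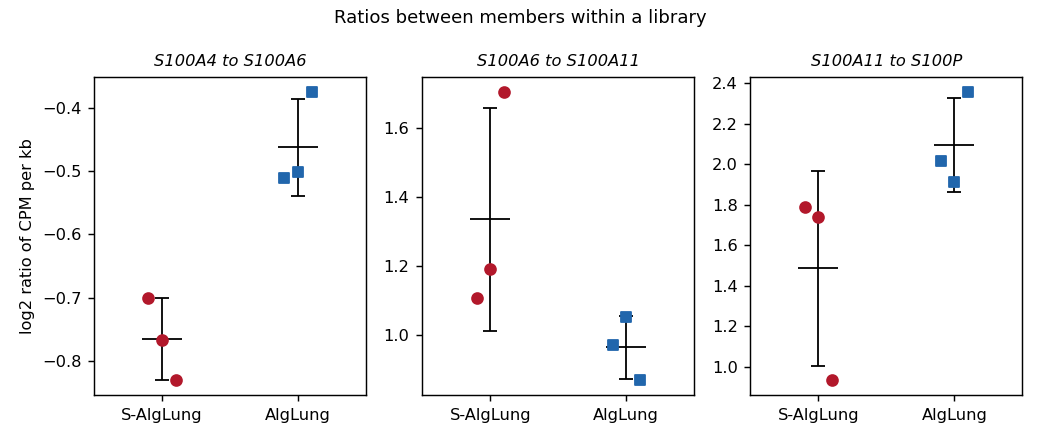
Log2 ratios of CPM per kb for 3 pairs of S100 members within each library, S-AlgLung (circles) beside AlgLung (squares), with the mean ± SD of 3 libraries. The groups do not overlap in the 3 pairs shown; S100A4 to S100A6 averages -0.77 in S-AlgLung and -0.46 in AlgLung.

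Of 12 other genes with an S100 symbol, 4 were tested and 0 were called. S100A10, the annexin A2 partner that binds no calcium, had 358, 479 and 356 CPM in S-AlgLung and 389, 611 and 639 CPM in AlgLung. Its log2 fold change was -0.46 (SE 0.27, 95% interval -1.003 to 0.09, adjusted p = 0.460). ANXA2 itself was at -0.41 (95% interval -0.98 to 0.17), and the ratio of S100A10 to ANXA2 (CPM per kb) was 2.97, 2.59 and 2.59 in S-AlgLung and 2.50, 2.88 and 2.92 in AlgLung, with overlapping groups. S100A1, a regulator of calcium cycling in muscle, was at 0.29 (95% interval -0.34 to 0.93), on 358 reads in all. On the other strand it shares 235 exon bases with S100A13 and 320 with ENSG00000272030, which had 2852 reads. Whether reads were counted by strand is not stated. S100A5 was at -0.01 (95% interval -0.84 to 0.82) and S100PBP, the gene of an S100P-binding protein, at 0.03 (95% interval -0.45 to 0.51). S100A8, the calprotectin subunit of myeloid cells, had 0 reads, as did S100A7A, S100A7L2, S100A12, S100G and S100Z; its partner S100A9 had 25 reads in all and S100A7 had 4.

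Binding partners and receptors were followed in a list of 42 genes, written from general knowledge. Of 38 tested, 0 rose and 2 fell in S-AlgLung; the 2 are 5.26% of the list, against 1.99% of all tested genes called lower and 5.14% called in either direction. The median log2 fold change was -0.15, against 0.03 for all tested genes. MCAM, an adhesion molecule and reported receptor of the S100A8 and S100A9 dimer, had 0.725, 1.48 and 1.07 CPM in S-AlgLung and 2.45, 2.97 and 3.19 CPM in AlgLung, with no overlap. Its log2 fold change was -1.39 (SE 0.34, adjusted p = 0.0110 in edgeR), on 288 reads in all, and CBL, which shares exon bases on the other strand, had 3039. Leaving out S-AlgLung replicate 1 ended this call (adjusted p = 0.0922), as did leaving out AlgLung replicate 2 (adjusted p = 0.0706).

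TP63, a p53 family factor of basal epithelium, fell to 15.3, 12.3 and 14.3 CPM in S-AlgLung, against 27.5, 20.8 and 28.6 CPM in AlgLung (log2 fold change -0.87, adjusted p = 0.0125 in edgeR). Without S-AlgLung replicate 2 or AlgLung replicate 3 its adjusted p was 0.0524 and 0.0890. MYH14, a non-muscle myosin heavy chain, was at 0.78 (adjusted p = 0.0673), with 35.7, 44.8 and 19.0 CPM in S-AlgLung and 18.2, 21.2 and 18.6 CPM in AlgLung. With S-AlgLung replicate 3 left out, MYH14 passed the test at 1.03 (adjusted p = 3.46e-05). CACYBP, the S100A6 partner, was at -0.48 (adjusted p = 0.254). It had 21.7, 26.0 and 28.2 CPM in S-AlgLung and 36.6, 31.5 and 37.9 CPM in AlgLung. Its groups did not overlap, as in 7 of the 38 tested partners and 18.4% of all tested genes. AGER, the gene of RAGE, was at 0.41 (95% interval -0.39 to 1.20), near 1 CPM, and MYH9, the myosin bound by S100A4, at -0.04 (95% interval -0.57 to 0.48).

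**Figure D5:**
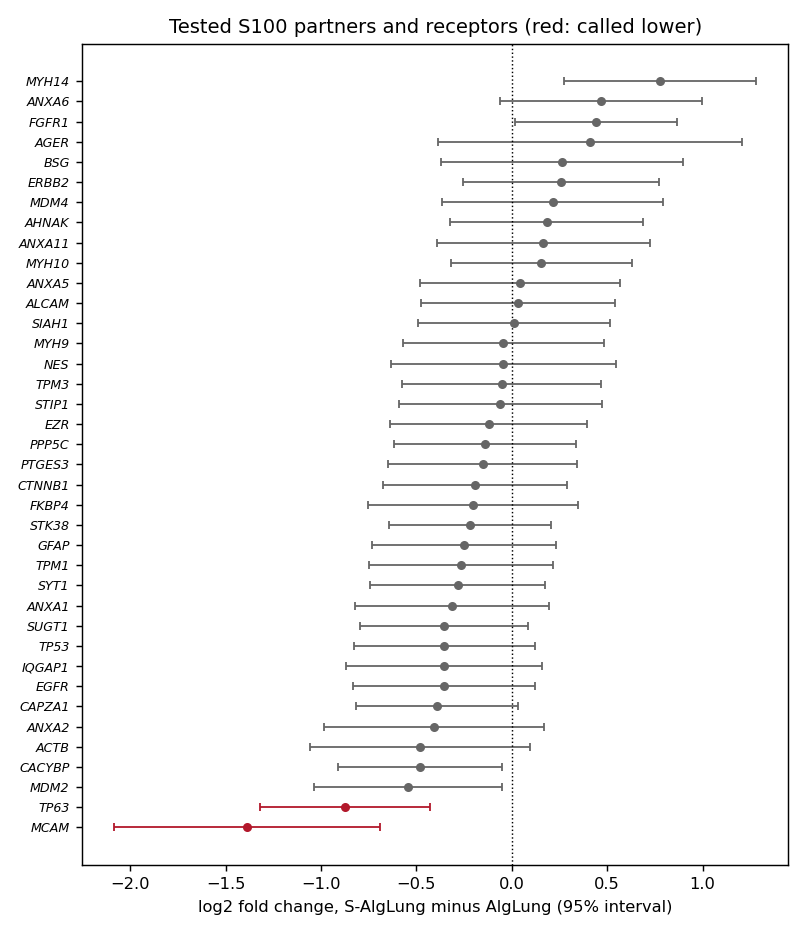
Log2 fold changes (S-AlgLung minus AlgLung) with 95% intervals for the 38 tested S100 partners and receptors, ordered by value, with called genes in red. MCAM at -1.39 and TP63 at -0.87 are the 2 called; MYH14 at 0.78 is the highest.

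Of the 10 members, 8 lie on chromosome 1, in an S100 gene cluster taken here as 151982915 to 153632039 (GRCh38). Of 108 other genes with a symbol that start within this stretch or 500 kb of it, 27 were tested; 2 rose and 0 fell, 7.41% called against 5.14% of all tested genes. RPS27, a ribosomal protein gene at 153990762 to 153992155 on the plus strand, had 231, 393 and 563 CPM in S-AlgLung and 144, 242 and 198 CPM in AlgLung, with overlapping groups. Its log2 fold change was 1.02 (adjusted p = 0.0345), a call lost without AlgLung replicate 1, 2 or 3, at 0.80, 1.21 and 0.98 (adjusted p = 0.337, 0.0988 and 0.156). Without S-AlgLung replicate 3 the call held, at 0.65 (adjusted p = 0.0425). With all libraries, RPS27 was not called in edgeR with DESeq2 size factors, total counts only or the gene length offset (adjusted p = 0.058, 0.052 and 0.083). Nor was it called with limma-voom (adjusted p = 0.067). Of 17 alternatives, 8 kept the call. Ribosomal protein genes have near-identical processed copies, so its count is uncertain. The median over the 27 neighbours was 0.05.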

How the data were processed

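The authors deposited 1 table of raw read counts for 62703 genes in 6 libraries, aligned to GRCh38 with STAR 2.7.3a and counted with featureCounts, per the submitters' processing notes; the strand setting and annotation release are not stated there. AlgLung replicate 1 appears in 2 identical columns and was used once. Gene symbols were matched for 42300 IDs. Genes were filtered with filterByExpr (minimum count 10), scaled by TMM and tested with edgeR 4.0.16 (quasi-likelihood F-test, both groups, no covariate) in R 4.3.3, with Benjamini-Hochberg adjustment over 18544 genes and calls at 0.05. The script was tested on simulated data. Intervals are 95% from the fit's t quantile, and CPM per kb divides by the table's exon length.

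Members and lists were chosen with earlier results of these data known. Named genes were all members, tested S100 family genes, called partners filled up to the 4 with the smallest p, and called neighbours, of which 1 is not reported here; ANXA2, AGER, MYH9, IQGAP1, FGF1 and IL1A, for their binding to or release by an S100 protein, and genes sharing exon bases with a named gene were named outside that rule. The gene length offset and the ratios between members were added after seeing the data. The labels do not state whether same-numbered replicates of the 2 hydrogels belong together, so the main fit left pairing out. Other alternatives were DESeq2 1.42.0, limma 3.58.1 with voom, other scalings and filters, stricter thresholds and leaving out each library.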

Additional observations from a re-analysis of the deposited data

How the results depend on the processing

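Of 136 values of the 8 tested members over 17 alternatives, 0 were called, and 9 changed sign, all on leaving out 1 library. Leaving out each library in turn gave log2 fold changes of -0.36 to 0.034 for S100A3, -0.32 to 0.093 for S100A4, -0.35 to 0.18 for S100A11, -0.11 to 0.29 for S100A13, -0.20 to 0.21 for S100A16, -0.19 to 0.12 for S100A5 and -0.17 to 0.11 for S100PBP. S100A5 was at 0.0037 with limma-voom, and S100PBP at -0.058 with total counts only, a scaling that moved the median of all genes by -0.10. Over all genes, 333 were called higher with total counts only, 323 at an adjusted p under 0.01 and 264 with glmTreat against a log2 fold change of 0.5; 217 and 188 were called lower under those 2 stricter rules. Leaving out a library gave 289 to 891 higher and 244 to 662 lower. Of the partners, 1 (MYH14) was called higher with no low-count filter, 0 were lower at 0.01 or with glmTreat, and leaving out a library gave 0 to 2 higher and 1 to 3 lower. Beside the cluster, 1 gene was called higher with DESeq2 size factors, total counts only, limma-voom, the gene length offset, 0.01 and glmTreat, and 1 to 2 on leaving out a library. Over all genes tested, the share called in either direction was 2.91% at 0.01, 2.44% with glmTreat and 3.45% with no low-count filter. It was 4.75% with DESeq2 size factors, 3.6% with total counts only, 4.56% with limma-voom and 4.83% with the gene length offset. With the replicate number as a block it was 7.01%. On leaving out a library it was 2.87% to 8.28%, highest without S-AlgLung replicate 3, where 2 partners were higher and 3 lower. Causes were not tested. With the replicate number as a block, 800 genes were higher and 500 lower, 0 members were called, and 1 partner (MYH14, at 0.70, adjusted p = 0.0187) was higher; same-numbered libraries correlated at 0.07, 0.29 and 0.04, and S-AlgLung replicate 3 correlated best with AlgLung replicate 1, at 0.21. S100A5 was not tested with a mean of at least 1 CPM. Depth limits S100A14 (57 reads) and S100B (1 read).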

Other observations

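ENSG00000238279, which lies antisense to S100A6 and shares 37 exon bases with it, had 31, 14 and 111 reads in S-AlgLung and 10, 20 and 18 in AlgLung. Its log2 fold change of 1.58 (SE 0.49) did not pass (adjusted p = 0.0626 in edgeR), and S-AlgLung replicate 3 held most of the reads. S100P relative to IQGAP1, its binding partner, was 13.2, 14.5 and 15.7 (ratio of CPM per kb) in S-AlgLung and 5.28, 13.4 and 7.43 in AlgLung, with overlapping groups (exact two-sided permutation p = 0.2). S100A4 relative to MYH9 was 41.8, 42.7 and 41.1 in S-AlgLung and 28.3, 48.9 and 51.2 in AlgLung, a smaller spread in S-AlgLung that was not tested.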
